A study of Sus scrofa with 32 samples.

Results

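The genes described here were RYR1, PRKAG3, IGF2, PPARGC1A and FABP3, which pig breeding and meat research knows for their bearing on pork quality. They were chosen by name, by a rule that used no measured values, but with earlier results of these data known. Of these 5 genes, 2 could be matched by symbol to an Ensembl ID among the 25322 gene IDs of the count table: PRKAG3 (ENSSSCG00000016200) and PPARGC1A (ENSSSCG00000029275). RYR1, IGF2 and FABP3 had no ID paired with their names and were not analysed here.

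Total RNA depleted of ribosomal RNA was sequenced from the longissimus dorsi (LD), a muscle of the back, and the semimembranosus (S), a muscle of the ham, of 16 gilts. The gilts were 8 Pulawska (PUL) and 8 Polish Landrace (PL) pigs, so that there were 32 libraries in 4 groups of breed and muscle. The labels give all 4 groups as females aged 180 days, and no treatment is named. The study housed and fed them alike at a single testing station, but they came from different farms. They were slaughtered at a set body weight, and the study lists age at slaughter among the traits it correlated with expression. It reports faster daily gain in PL, so breed cannot be told apart from growth rate here. Each pig gave both muscles. The labels also mark PUL as high and PL as low in shear force, which runs opposite to how the study describes the meat of the breeds, so the groups are named by breed alone and nothing is read about tenderness.

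PRKAG3 encodes the gamma-3 regulatory subunit of AMP-activated protein kinase (AMPK), an enzyme that senses the energy state of the cell. In pigs, coding variants of PRKAG3 change how much glycogen is stored in fast muscle, and so how far the pH of the meat falls after slaughter. PPARGC1A encodes PGC-1 alpha, a coactivator of transcription that drives the making of mitochondria and the slow, oxidative fibre programme. Among the genes with no matched ID, RYR1 is the calcium release channel of muscle, in which a variant causes malignant hyperthermia and pale, soft, exudative pork, IGF2 is a growth factor for which a regulatory variant raises lean mass, and FABP3 carries fatty acids inside muscle cells.

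The muscle labels were first checked on genes that differed between the muscles. Among the 11 genes called between S and LD were 6 HOX and ZIC genes, which mark position along the body, and in 14 pigs the levels of all 6 did not overlap between the muscles. In PL pig 14 all 6 were turned, with 0.0647 CPM of ZIC1 in the library labelled LD and 2.78 CPM in the library labelled S. The other 14 pigs had 1.68 to 7.53 CPM of ZIC1 in LD and 0.145 to 0.763 CPM in S. The library labelled S of PL pig 8 had 3.89 CPM of ZIC1, also above the S range, beside 6.98 CPM in its LD library. That S library was above the S range in all 4 of the genes higher in LD. Its 0.471 CPM of HOXA10 lay within the S range of 0.450 to 3.18 CPM and above the highest LD level of 0.148 CPM. Its 0.236 CPM of HOXA11 lay between the highest LD level of 0.0775 CPM and the lowest S level of 0.276 CPM. In this library 3 reads make 0.353 CPM, so these levels rest on few reads. What this library holds was not settled, and 1 of the 6 genes was turned in pig 8. The genes of this check were chosen after their values were seen, no label was changed, and differences below are given for 16 pigs and for the 14 pigs without pigs 8 and 14. Counts per library ranged from 8821273 to 24761853, with a median of 15529948.

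Levels are given in CPM, a gene's read count scaled to the size of its library, with library sizes adjusted by the trimmed mean of M values (TMM). PRKAG3 was detected in all 32 libraries, with 80.3 to 427.8 reads. In the LD of PUL pigs it ranged from 5.51 through a median of 11.3 to 26.5 CPM. In the S of PUL pigs the range was 6.42 to 19.2 CPM, with a median of 12.7 CPM. The 4 groups overlapped almost wholly, and the spread was wider in LD than in S of the same breed. PL pigs had 5.87 to 31.7 CPM in LD, with a median of 14.5 CPM. In PL S the lowest, median and highest levels were 7.18, 13.2 and 22.2 CPM. The highest level of all, in the LD of pig 12, was 5.75 times the lowest, in the LD of pig 1.

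Means of PRKAG3 were ordered from PL LD (16.5 ± 10.8 CPM, SD, n = 8) through PUL LD (13.9 ± 8.33 CPM, SD, n = 8) and PL S (13.1 ± 4.71 CPM, SD, n = 8) to PUL S (12.4 ± 4.42 CPM, SD, n = 8). No neighbours in this order differed by more than their SD. Without pigs 8 and 14, PL LD stood at 17.6 ± 11.6 CPM and PL S at 11.8 ± 3.50 CPM (SD, n = 6).

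**Figure D1:**
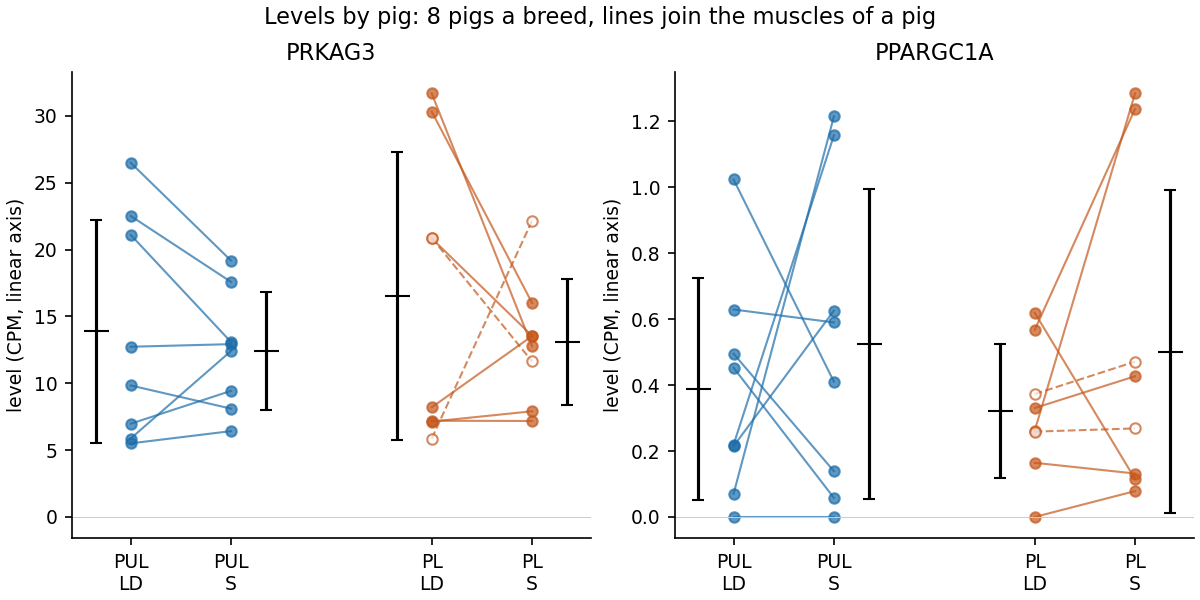
Level of PRKAG3 (left) and PPARGC1A (right) in CPM on linear axes, with a line joining the muscles of each pig, PUL in blue and PL in orange, and the mean ± SD of 8 pigs beside each group. Open points and dashed lines are pigs 8 and 14; PRKAG3 was above 20 CPM in 7 LD libraries and in 1 S library.

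In LD the PRKAG3 levels lay in separate ranges, with no library between 12.7 and 20.8 CPM. The upper range, above 20 CPM, held 7 pigs, 3 of them PUL and 4 PL. All 7 had a lower level in S than in LD, with S at 0.403 to 0.781 times LD. Of the 9 pigs in the lower range, 7 had a higher level in S, and the S to LD ratio ran from 0.824 in pig 17 to 3.78 in pig 14. Since the pigs were divided by LD, a value that also enters the ratio, these counts were not tested.

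In S the levels of the same pigs were closer together. The 7 pigs of the upper LD range had 11.6 to 19.2 CPM in S, and the 9 others 6.42 to 22.2 CPM, or 6.42 to 13.5 CPM in the 8 of them other than pig 14. On average S stood at 14.8 ± 2.80 CPM (SD, n = 7) in pigs of the upper LD range and 11.1 ± 4.91 CPM (SD, n = 9) in the others, or 9.74 ± 2.81 CPM (SD, n = 8) in the others without pig 14, so that pigs with more PRKAG3 in LD had on average more in S. As the LD levels fell into separate clusters, coefficients are given within them and not over all pigs. Within the upper range, Pearson's r between log2 levels in LD and S was 0.28 (n = 7), or 0.09 without pig 8 (n = 6), and within the lower range 0.03 (n = 9), or 0.42 without pig 14 (n = 8). These coefficients are descriptions over few pigs, each moved by 1 pig, and do not show that the muscles of a pig are unrelated.

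**Figure D2:**
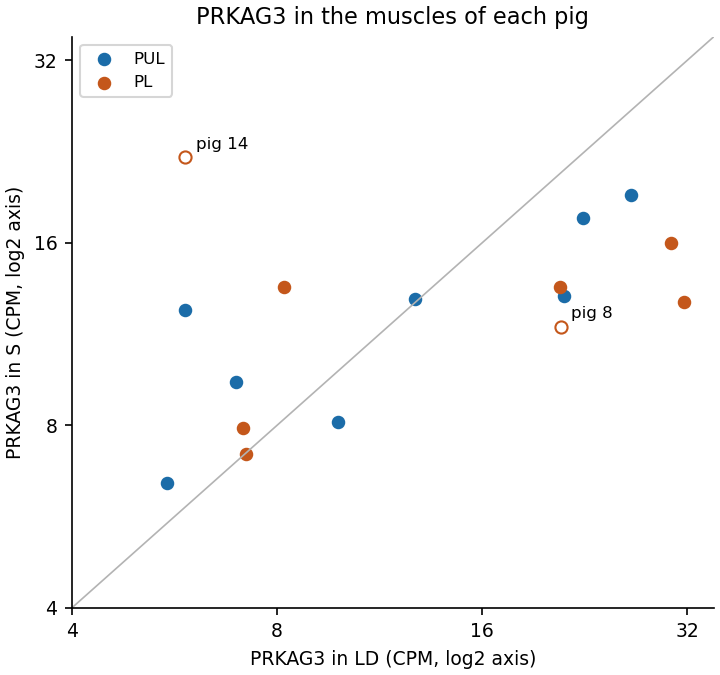
PRKAG3 in the LD (x axis) and S (y axis) of each of 16 pigs in CPM, both axes log2, with the line of equal levels. The 7 pigs above 20 CPM in LD all lie below the line, and pigs 8 and 14 are the open points; pig 14 is farthest above the line, at 3.78 times as much in S as in LD.

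The wide LD spread was also seen against all genes. The SD of log2(CPM + 0.5) of PRKAG3 within breed was 0.93 in LD and 0.51 in S, a ratio of 1.83. Over the 11563 tested genes the median ratio was 1.07, and 97.7% had a lower one. In the 14 pigs without pigs 8 and 14 the ratio was 1.94, beside a median of 1.18, and 95.7% of genes had a lower one. PPARGC1A stood at the other end, with an SD of 0.46 in LD and 0.66 in S, and 7.72% of genes had a lower ratio than its 0.694. In the 14 pigs its ratio was 0.678, and 4.10% of genes had a lower one. With a median of 4.5 reads a library, its SDs also hold counting error and depend on the added 0.5, whose part was not tested.

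The first question was whether the genes differ between the muscles of a pig. Over both breeds, PRKAG3 in S was 0.945 times its level in LD, with a 95% interval of 0.709 to 1.26. The log2 fold change was -0.08 (standard error 0.20), and the adjusted p was 0.988 in edgeR's quasi-likelihood test with the pig as a block and Benjamini-Hochberg adjustment over all tested genes. The gene was higher in S in 7 pigs and lower in 9 (exact sign-flip permutation test, two-sided p = 0.752, smallest possible p 3.05e-05). Without pigs 8 and 14 the log2 fold change was -0.16 (standard error 0.16, edgeR adjusted p = 0.745), with an interval of -0.50 to 0.18. Neither of the 2 genes was called at an adjusted p of at most 0.05 and a fold of at least 1.3, where 0.0951% of all tested genes were called, or 0.925% without pigs 8 and 14. A p that misses the threshold does not show equal levels, and folds from 0.709 to 1.26 lay within the interval.

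Within PUL, PRKAG3 was higher in S in 4 pigs and lower in 4, and its log2 fold change was -0.01 (95% interval -0.59 to 0.57). Within PL it was higher in 3 and lower in 5, with a log2 fold change of -0.15 (95% interval -0.74 to 0.45), or -0.32 (-0.84 to 0.20) without pigs 8 and 14. Of all tested genes, 0.0259% were called in PUL and 0% in PL by edgeR, and 758 and 265 of 11563 genes had an unadjusted p under 0.05. The difference of these muscle effects between breeds, tested as an interaction, was -0.14 (standard error 0.39, 95% interval -0.96 to 0.69), and edgeR called 0% of genes, with 294 at an unadjusted p under 0.05. In the 14 pigs the shares called were 0.208% in PUL and 0.104% in PL, PRKAG3 and PPARGC1A not among them, and the interaction of PRKAG3 was -0.32 (standard error 0.32).

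The other question was whether the breeds differ within a muscle. PRKAG3 in PL was 1.19 times its level in PUL in LD, with a 95% interval of 0.640 to 2.20, and 1.06 times in S, with an interval of 0.744 to 1.52. On the log2 scale these were 0.25 (standard error 0.42, edgeR adjusted p = 0.966) and 0.09 (standard error 0.24, edgeR adjusted p = 0.909). Without pigs 8 and 14 the values were 0.33 in LD and -0.06 in S, so that the sign in S turned. Here edgeR called 0% of the genes tested in LD (10792) and 0% of those in S (10687), while 772 and 1252 had an unadjusted p under 0.05. Leaving out pigs 8 and 14, the shares called were 0.00927% and 0.00936%.

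**Figure D3:**
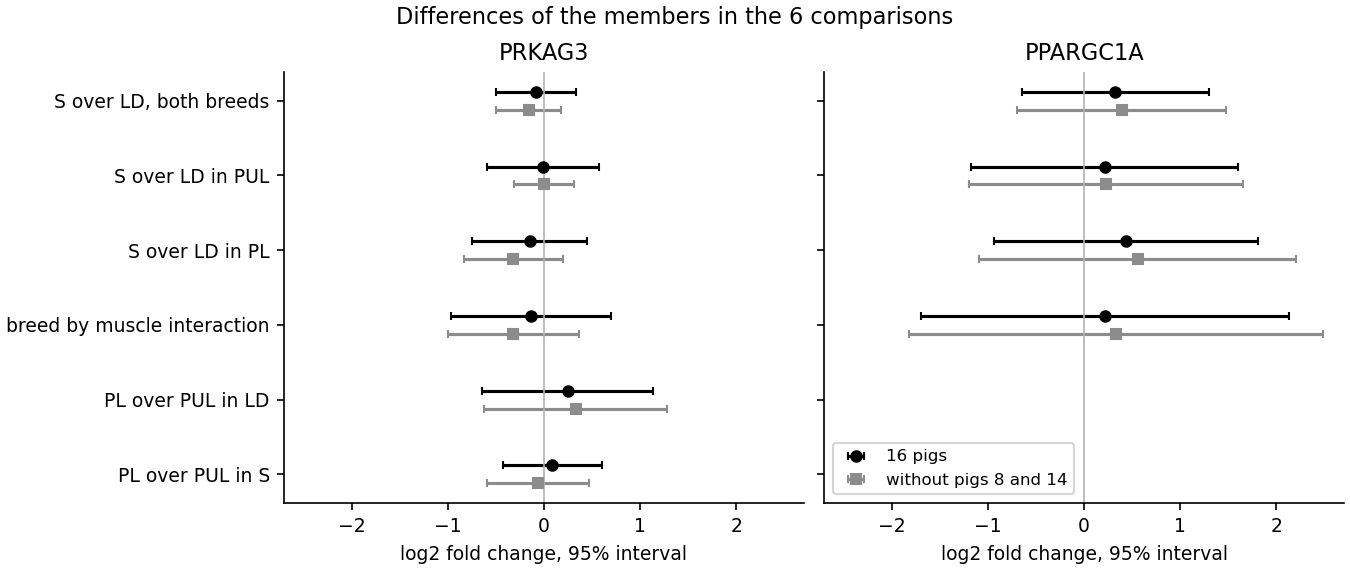
Log2 fold change with 95% interval (x axis) of PRKAG3 and PPARGC1A in each comparison (y axis), black for 16 pigs and grey without pigs 8 and 14. All intervals include 0; PRKAG3 over both breeds was -0.08 (-0.50 to 0.33), and PPARGC1A was not tested between breeds.

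The reads behind PRKAG3 were divided with another entry. The table holds estimated counts, in which a read that fits several transcripts is split among them, and the PRKAG3 count was not a whole number in 31 of 32 libraries. Its sum with the entry ENSSSCG00000023802, which has no symbol, was whole within 0.015 in all 32 libraries, while the next best entry reached this in 6. PRKAG3 took 28.8% to 57.2% of the pair, with a median of 46.0%. The entries rose and fell together over the 32 libraries (r = 0.86 of log2 levels, which share reads).

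**Figure D4:**
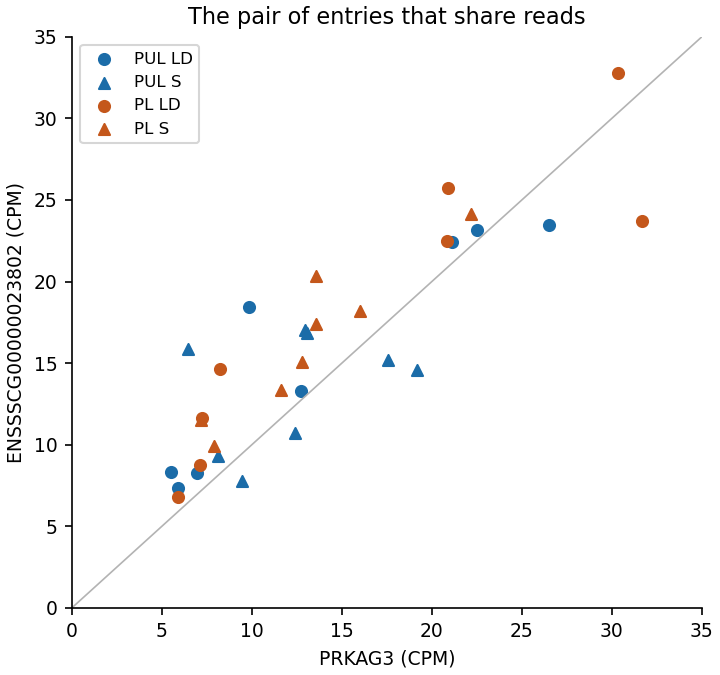
Level of PRKAG3 (x axis) and of ENSSSCG00000023802 (y axis) in CPM in 32 libraries, blue for PUL, orange for PL, circles for LD, triangles for S, with the line of equal levels. Most points lie above the line, and PRKAG3 took a median of 46.0% of the pair.

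Because of this division, the sum of the pair was also read. Whether the other entry is part of PRKAG3 or another gene is not known here, so the sum may not be a level of PRKAG3. The summed level had means of 29.5 ± 15.1 CPM in PUL LD, 25.8 ± 6.65 CPM in PUL S, 34.8 ± 19.6 CPM in PL LD and 29.3 ± 9.27 CPM in PL S (SD, n = 8). The order of the groups was that of PRKAG3 alone, with PUL LD and PL S almost level. In S over LD the mean log2 difference of the sum was -0.07 (exact sign-flip permutation test, two-sided p = 0.727, n = 16). Between the breeds, PL minus PUL was 0.20 in LD (exact permutation test, two-sided p = 0.637, n = 16) and 0.16 in S (exact permutation test, two-sided p = 0.449, n = 16). In the 14 pigs these differences of the sum were -0.15 between the muscles, 0.29 between breeds in LD and 0.07 in S (exact permutation tests, two-sided p = 0.356, 0.505 and 0.755, n = 14).

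PPARGC1A was near the limit of detection. Its libraries held 0 to 25 reads with a median of 4.5, and 9 of 32 had at least 10 reads. Both muscles of pig 17 and the LD of pig 18 had no read, and a count of 0 in the LD of pig 17 allows a level of up to 0.255 CPM, counting error alone considered. The depth thus cannot show a difference between most of these libraries.

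In LD the PPARGC1A levels of PUL pigs ranged from 0 through a median of 0.336 to 1.02 CPM, and those of PL pigs from 0 through 0.296 to 0.620 CPM. In S they were 0 to 1.22 CPM in PUL, with a median of 0.5001 CPM, and 0.0785 to 1.28 CPM in PL, with a median of 0.348 CPM. All groups overlapped, and 5 libraries were above 1 CPM: the LD of pig 16 and the S of pigs 5, 7, 13 and 15. Means ran from PUL S (0.525 ± 0.470 CPM, SD, n = 8) and PL S (0.502 ± 0.490 CPM) to PUL LD (0.388 ± 0.336 CPM) and PL LD (0.322 ± 0.203 CPM), and no neighbours differed by more than their SD.

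PPARGC1A was higher in S in 9 pigs, lower in 6, and at 0 in both muscles in 1. Its log2 fold change of S over LD was 0.32 (standard error 0.46, edgeR quasi-likelihood adjusted p = 0.977 after Benjamini-Hochberg adjustment), a fold of 1.25 with a 95% interval of 0.637 to 2.46. The exact sign-flip permutation test gave a two-sided p of 0.366 over 16 pigs. Without pigs 8 and 14 the log2 fold change was 0.39 (standard error 0.51, edgeR adjusted p = 0.814). Within PUL it was 0.21 (95% interval -1.18 to 1.61), within PL 0.43 (95% interval -0.94 to 1.80), and the interaction was 0.22 (95% interval -1.69 to 2.13). The 14 pigs gave 0.23, 0.56 and 0.33 for these. The gene did not pass the filter on low counts in the fits of breed. There an exact permutation test of log2(CPM + 0.5) gave a two-sided p of 0.778 in LD and 0.927 in S, with PL minus PUL at -0.07 and -0.03 (n = 16 each), or -0.07 and -0.0022 in the 14 pigs.

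To compare each gene with its nearest relative within a library, its counts were set against those of PRKAG1, the ubiquitous gamma-1 subunit, or PPARGC1B, the related coactivator PGC-1 beta. The log2 ratio of PRKAG3 to PRKAG1 differed between S and LD by -0.16 on average (exact sign-flip permutation test, two-sided p = 0.525, 0.666 adjusted over 6 tests, n = 16), and it was lower in S in 10 of 16 pigs. That of PPARGC1A to PPARGC1B differed by 0.38 (exact sign-flip permutation test, two-sided p = 0.519, adjusted p = 0.666, n = 16). Between breeds, PL minus PUL, the PRKAG3 ratio differed by 0.05 in LD and 0.15 in S (exact permutation tests, two-sided p = 0.921 and 0.549, n = 16). The PPARGC1A ratio differed by -0.55 in LD and 0.45 in S (exact permutation tests, two-sided p = 0.444 and 0.555, n = 16). These ratios had 0.5 added to each count, and those of PPARGC1A depended on it. With 5 added, the PPARGC1A ratio differed by 0.28 between the muscles, and between breeds by -0.30 in LD and 0.15 in S. In the 14 pigs the PRKAG3 ratio differed by -0.22 between the muscles and by 0.09 in LD and 0.05 in S between breeds (exact permutation tests, two-sided p = 0.287, 0.870 and 0.827, n = 14). The PPARGC1A ratio there differed by 0.49, -0.86 and 0.58 (exact permutation tests, two-sided p = 0.459, 0.294 and 0.513, n = 14), so that no ratio passed in either set of pigs. The level of PRKAG1 itself was 30.2 ± 8.09 CPM in PUL LD, 34.1 ± 5.71 in PUL S, 33.0 ± 7.29 in PL LD and 32.3 ± 2.84 in PL S (SD, n = 8).

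Around PRKAG3, the list of AMPK subunits, its upstream kinases and the enzymes of glycogen had 22 genes, of which 19 were tested. Over 16 pigs edgeR called none of them between S and LD, and the median log2 fold change was 0.02, beside -0.01 over all tested genes. The smallest p belonged to PRKAG2, which encodes the gamma-2 subunit. It had 10.196 ± 3.77 CPM in PUL LD, 16.8 ± 6.24 in PUL S, 12.95 ± 4.13 in PL LD and 18.7 ± 5.40 in PL S (SD, n = 8). Its log2 fold change was 0.65 (standard error 0.16, edgeR adjusted p = 0.211), and it was higher in S in 14 of 16 pigs. Without pigs 8 and 14, PRKAG2 rose in S by 0.74 on the log2 scale (standard error 0.13, edgeR adjusted p = 0.0114). It was the only gene of the list called in these 14 pigs, where 0.925% of all tested genes were called, beside 0.0951% over 16. Leaving out each pig in turn gave 0.60 to 0.75 (edgeR adjusted p = 0.00606 to 0.485). Only the fit without pig 14 called PRKAG2, and that fit called 77 genes in all. DESeq2, which called more genes than edgeR in this comparison, also called PRKAG2 over 16 pigs (0.66, adjusted p = 0.015004).

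The genes next to PRKAG2 in that order did not pass the test. PPP1R3C, which targets a phosphatase to glycogen, had a log2 fold change of 0.51 (standard error 0.16, edgeR adjusted p = 0.448), or 0.61 (0.118) in the 14 pigs. PRKAB2, the beta-2 subunit that pairs with gamma-3 in muscle, was at -0.60 (standard error 0.29, edgeR adjusted p = 0.856), or -0.73 (0.253) in the 14 pigs. CAMKK2, a kinase upstream of AMPK, was at 0.42 (standard error 0.22, edgeR adjusted p = 0.885), or 0.62 (0.155). The genes with the most reads were PYGM, the glycogen phosphorylase of muscle, at 0.00 (standard error 0.23), and PHKA1, a subunit of the kinase that activates it, at 0.11 (standard error 0.16), and the 14 pigs gave -0.07 and 0.11.

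PGC-1 alpha acts through partners such as nuclear receptors, and 19 of 23 listed partners and targets were tested, PPARGC1A included. None was called, where 0.0951% of all tested genes were, and the median log2 fold change was 0.02. SIRT3, a mitochondrial deacetylase, had 9.81 ± 2.29 CPM in PUL LD, 12.7 ± 2.92 in PUL S, 13.65 ± 4.502 in PL LD and 16.2 ± 4.795 in PL S (SD, n = 8), and was higher in S in 13 of 16 pigs. Its log2 fold change was 0.32 (standard error 0.10, edgeR adjusted p = 0.421), or 0.30 (0.212) in the 14 pigs. ESRRG, an oestrogen-related receptor and partner of PGC-1 alpha, was at 1.04 (standard error 0.48, edgeR adjusted p = 0.837). TFB1M was at 0.23, and UCP3, an uncoupling protein of muscle mitochondria, at 0.39. ESRRA, the related receptor with the most reads, was at -0.01 and MEF2A, a muscle transcription factor, at -0.15. In the 14 pigs, where 0.925% of all tested genes were called, edgeR called none of the 19 either. There ESRRG was at 1.29, TFB1M at 0.25, UCP3 at 0.27, ESRRA at -0.08 and MEF2A at -0.09.

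**Figure D5:**
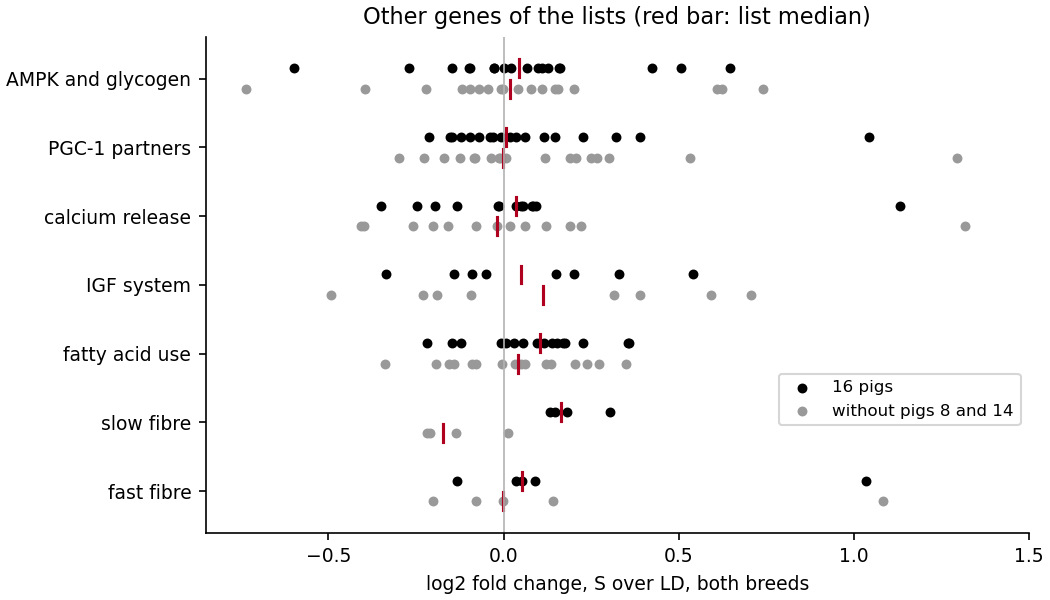
Log2 fold change of S over LD over both breeds (x axis) for the tested genes of 7 lists (y axis) other than PRKAG3 and PPARGC1A, black for 16 pigs and grey without pigs 8 and 14, with red bars at the medians of the genes plotted. The gene farthest right is S100A1 of the calcium release list, at 1.13 and 1.32.

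The lists around the genes with no matched ID are given for their partners alone. For RYR1, 13 of 22 genes of calcium release and storage were tested. Over 16 pigs edgeR called none of them, where 0.0951% of all tested genes were called. S100A1, which binds the release channel, had 63.6 ± 62.0 CPM in PUL LD, 152 ± 88.3 in PUL S, 111 ± 108 in PL LD and 117 ± 21.0 in PL S (SD, n = 8). Its log2 fold change was 1.13 (standard error 0.29, edgeR adjusted p = 0.244). In the 14 pigs, where 0.925% of all tested genes were called, it rose by 1.32 (standard error 0.26, edgeR adjusted p = 0.0243). Leaving out each pig in turn gave 1.01 to 1.304 (edgeR adjusted p = 0.0161 to 0.572), with a call for S100A1 only without pig 14. DESeq2, which called more genes than edgeR in this comparison, called S100A1 over 16 pigs (1.14, adjusted p = 0.00603). CACNA2D1, a calcium channel subunit, was at -0.35, JPH1, which ties the membranes of the triad, at -0.19, SRL, sarcalumenin, at -0.25, SLN, sarcolipin, at 0.09, and CASQ1, the calcium store protein of fast fibres, at -0.13. The 14 pigs gave -0.41, -0.26, -0.40, 0.22 and -0.20 for these 5 genes in the same order, none of them called.

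For IGF2, 8 of 21 genes of the insulin-like growth factor system were tested and none was called. Of all tested genes 0.0951% were called in S over LD, or 0.925% in the 14 pigs, so no call among so few genes says little about the lists of this paragraph. IGFBP7 had a log2 fold change of 0.54 (standard error 0.21, edgeR adjusted p = 0.703), or 0.71 (0.137) in the 14 pigs. The other binding proteins named by the rule were IGFBP4 at 0.20, IGFBP5 at -0.34 and IGFBP6 at 0.33, or 0.32, -0.49 and 0.59 in the 14 pigs, none of them called. For FABP3, 16 of 21 genes of fatty acid uptake and oxidation were tested, with a median of 0.10 and none called. ACADM, the medium-chain dehydrogenase, was at 0.36 (standard error 0.17, edgeR adjusted p = 0.851), ACSL1, which activates fatty acids, at 0.36, HADHB and HADHA, of the trifunctional protein, at 0.14 and 0.09, and ACADL, the long-chain dehydrogenase, at -0.22. Over the 14 pigs the median was 0.04, with ACADM at 0.35, ACSL1 at 0.24, HADHB at 0.14, HADHA at -0.0043 and ACADL at -0.34, again none called.

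PRKAG3 is known from fast and PPARGC1A from slow muscle, so genes of both fibre types were also read. Of the 10 slow genes 4 were tested and of the 12 fast genes 5, and edgeR called none in S over LD. Of all tested genes 0.0951% were called there, or 0.925% without pigs 8 and 14. The slow genes MYL3, TNNT1, TNNC1 and TNNI1 were at 0.30, 0.18, 0.15 and 0.13. Without pigs 8 and 14 the sign turned in all but MYL3, with a median of -0.17 over the 4. These values average over breeds that differed in sign. All 4 were higher in S within PUL, with a median of 0.53, and lower within PL, with a median of -0.20. The medians were 0.55 and -0.87 without pigs 8 and 14. None of the 4 was called within a breed or in the interaction. PVALB, the calcium buffer of fast fibres, was at 1.03 (standard error 0.29, edgeR adjusted p = 0.328). DESeq2, which called more genes than edgeR in this comparison, called PVALB (1.04, adjusted p = 0.0160). CASQ1, MYL1 and TNNC2 lay between -0.13 and 0.09. For the 14 pigs PVALB was at 1.08 (edgeR adjusted p = 0.0871), with 1.61 in PUL and 0.56 in PL, and the other 3 between -0.20 and 0.14. Median r with PRKAG3 over 32 libraries was 0.31 for the fast and 0.09 for the slow genes tested, beside -0.03 over all tested genes. Single fast genes ran from -0.03 for PVALB to 0.64 for ATP2A1. The lists of calcium release, muscle markers and AMPK had higher medians, at 0.41, 0.41 and 0.34, so this was not particular to fast fibre genes. With PPARGC1A the medians were -0.15 for fast and 0.40 for slow genes, beside 0.01 over all tested genes. All are described without a test.

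By pattern, the genes closest to PRKAG3 over 32 libraries were PFKFB4 (r = 0.86 of log2 levels), ENSSSCG00000023802 (r = 0.86), with which it shares reads, and NAA60 (r = 0.85). Within the 28 libraries of the 14 pigs the same 3 had r of 0.85, 0.84 and 0.86 and were still the closest. PPARGC1A was closest to 3 entries with no symbol, ENSSSCG00000028839 (r = 0.66), ENSSSCG00000004392 (r = 0.64) and ENSSSCG00000007401 (r = 0.64), of which 1 was still among the closest 3 in the 28 libraries. PFKFB4 encodes an enzyme that sets the level of a regulator of glycolysis. Libraries with high PRKAG3 shared much else, since its r with the first component of all tested genes, which held 27.6% of the variance, was 0.75 in size, and 88.4% of genes had a lower one.

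Bulk muscle holds several cell types, and fewer cells of a type cannot be told apart from less RNA per cell. Of 7 muscle fibre markers 4 had an ID, and their sum was high in every library, from 38338 to 168369 CPM, with r = 0.45 to PRKAG3. Taken singly, their r ran from 0.11 for DES to 0.46 for NEB. Of 5 immune markers 3 had an ID, none at 0 throughout, and their r with PRKAG3 was -0.51. Their summed level was 4.33 to 17.3 CPM in PUL LD, 5.03 to 15.3 in PUL S, 6.57 to 35.7 in PL LD and 8.57 to 17.3 in PL S. For the summed endothelial and fibroblast markers r with PRKAG3 was -0.32 and -0.24. Taken singly, the tested endothelial genes ran from -0.36 for PECAM1 to 0.01 for KDR. The tested fibroblast genes ran from -0.33 for LUM to -0.14 for COL3A1. The other marker sums read had r between -0.08 and 0.24. The part of these cell types in the levels of PRKAG3 was not tested.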

How the data were processed

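The deposited values were expected counts per gene and per isoform, which the authors estimated with RSEM after aligning reads with Bowtie2 to Sscrofa10.2, per the labels. They were not normalised for depth, and a read that fitted several entries was divided among them. The isoform values were not used, since their transcript IDs are not paired with genes here. No genome of this build was used, so no coordinates or sequences are given. Gene symbols came from a table of Ensembl IDs, which named 11804 of 25322 IDs.

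From there, expected counts were rounded and fitted in R 4.3.3 with edgeR 4.0.16 (TMM factors, filterByExpr, quasi-likelihood test, Benjamini-Hochberg adjustment). S over LD was fitted with the pig as a block over 32 libraries, and breed within each muscle over 16. A call needed an adjusted p of at most 0.05 and a fold of at least 1.3. Labels pair the muscles of a pig. The deviations of the 2 libraries of a pig correlated by -0.52 to 0.69, with a median of 0.20, beside -0.0073 between different pigs. In 11 of 16 pigs the correlation was over 0.1, but in only 4 did the LD library correlate best with its own S library. The pairing thus rests on the labels. Single values were tested in Python 3.11.15 with exact permutation tests of log2(CPM + 0.5). Intervals are 95%. DESeq2 1.42.0 was an alternative. The fits were also run on simulated counts. Those had no effect of the pig and no exchanged libraries, so they do not test the pairing. No duplicated library was found.

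The members, the lists and the tests were chosen with earlier results of these data known. Genes named were, from each list, the 4 with the smallest p and the 2 with the most counts, and the 3 closest in pattern to each member. The checks without pigs 8 and 14 and with summed entries were added after seeing the data. Correlations of LD with S over all pigs, 12 in number, were computed and are not given, since PRKAG3 levels in LD form clusters. Ratios of IGF2 to IGF1 and FABP3 to FABP4, and isoforms, were not run.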

Additional observations from a re-analysis of the deposited data

How the results depend on the processing

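No alternative gave a call for PRKAG3 or PPARGC1A: of 260 values of these genes, 100 of them from alternatives other than leaving out a pig, 0 were called and 22 had the sign turned. The depth limits PPARGC1A, with a median of 4.5 reads a library, and the cause of the shifts below was not tested.

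Counts of genes called moved with the processing. In S over LD of both breeds (11) there were 65 with DESeq2, 0 when at least 10 counts were asked of every library, and 107 without pigs 8 and 14. In PUL (3) there were 79 with DESeq2, 6 with library size alone, 8 with no filter, 0 with the filter of 10 counts, 10 with no replicate block, 18 with the breed fitted alone and 24 without pigs 8 and 14. In PL (0) there were 4 with DESeq2 and 12 without these pigs, and in the interaction (0) 1 with DESeq2. PL over PUL in LD (0) gave 18 with DESeq2, 4 with no filter, 13 with edgeR's exact test and 1 without the pigs. PL over PUL in S (0) gave 101, 4, 56 and 1, and 1 with RLE factors.

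The sign of PRKAG3 within PUL turned to 0.0022 with DESeq2, 0.00025 with RLE factors, 0.00043 with the breed fitted alone and 0.00021 without pigs 8 and 14. Its interaction turned to 0.12 with library size alone, and PL over PUL in S to -0.064 without the pigs. Without the replicate block, that is ignoring the pairing of muscles within a pig, PRKAG3 in S over LD was -0.25 and PPARGC1A 0.53, and 16 genes were called in both breeds. In the comparisons of breed, a replicate block of shared numbers that do not mark shared pigs gave 0.20 in LD and 0.08 in S for PRKAG3, with 0 calls.

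Among other genes, ESRRA turned to 0.0017 with DESeq2, 0.0018 with RLE factors, 0.0059 with the filter of 10 counts and 0.048 with no replicate block. PYGM turned to -0.0086 with library size alone, -0.076 with no block and -0.071 without pigs 8 and 14, and ENSSSCG00000004392 to -0.017 with library size alone. Without the pigs, HADHA was -0.0043, TNNT1 -0.22, TNNC1 -0.14, TNNI1 -0.21 and TNNC2 -0.0025.

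Leaving out each pig in turn gave 4 to 77 calls in both breeds, 77 without PL pig 14, 0 to 21 in PUL, 0 to 6 in PL, 0 in the interaction, and 0 to 1 in each breed comparison. PRKAG3 ran from -0.22 to 0.0068 in both breeds, -0.15 to 0.086 in PUL, -0.42 to 0.027 in PL, -0.40 to 0.041 in the interaction, 0.056 to 0.46 in LD and -0.055 to 0.20 in S. PPARGC1A ran from 0.085 to 0.52 in both breeds, -0.26 to 0.59 in PUL, 0.089 to 0.82 in PL and -0.14 to 0.70 in the interaction. The ratio of PRKAG3 to PRKAG1 between breeds in LD ran from -0.19 to 0.24. The ranges were -0.090 to 0.12 for PYGM, -0.089 to 0.10 for ESRRA, -0.10 to 0.46 for TNNT1, -0.11 to 0.38 for TNNC1, -0.13 to 0.39 for TNNI1, -0.017 to 0.17 for TNNC2 and -0.13 to 0.049 for ENSSSCG00000004392.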
